A study of Mus musculus with 3 samples.

Results

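Foxp3, Ikzf2 and Il2ra are genes of regulatory T cells (Treg cells), and the question addressed here is how the promoter mark H3K4me3 and the binding of STAT3 are distributed over them in T cells cultured towards the Th17 state. The 3 genes were chosen by name, and each was given a fixed window of the mm9 genome with an approximate start position and strand. They are 3 of 21900 protein-coding genes in the gene table used, and their windows held 9 of the 15684 H3K4me3 regions found across the genome. Windows were chromosome X from 7140000 to 7185000 for Foxp3, chromosome 1 from 69565000 to 69745000 for Ikzf2 and chromosome 2 from 11550000 to 11630000 for Il2ra.

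Foxp3 is the transcription factor that defines the Treg lineage. Ikzf2 encodes Helios, an Ikaros-family zinc-finger protein found in many Treg cells, and Il2ra encodes CD25, the alpha chain of the high-affinity IL-2 receptor, which Treg cells carry at high levels and other T cells gain on activation. TGF-b can switch on Foxp3 in activated naive CD4 cells, and IL-6, which acts through STAT3, turns the same cells towards IL-17 production instead. H3K4me3 is deposited around the starts of active or poised genes.

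The STAT3-deficient cells carried Stat3fl/fl with CD4-Cre, a Cre recombinase driven by Cd4 regulatory sequences that deletes the floxed gene in T cells. The wild-type cells carried Stat3fl/fl without Cre, and the titles of all libraries also name FoxP3-GFP. There were 3 libraries of chromatin immunoprecipitation with sequencing, with 1 in each group: H3K4me3 in STAT3-deficient cells, H3K4me3 in wild-type cells, and STAT3 phosphorylated at Ser727 in wild-type cells, called phospho-STAT3. All cells were naive CD4+CD44-CD62L+ T cells sorted from mice, activated through CD3 and CD28 for 72 h with TGF-b at 2.5 ng/ml, IL-6 at 10 ng/ml and antibodies that block IL-2, IL-4 and IFN-g, and given IL-6 for 1 h before harvest. The sort names no gate on CD25 or on the reporter, and the sources used here do not say how the FoxP3-GFP allele was built. Age and sex of the mice are not given in the labels, nor is the number of mice behind a library.

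The libraries held 12075963 STAT3-deficient H3K4me3 reads, 12281399 wild-type H3K4me3 reads and 10127075 wild-type phospho-STAT3 reads. Read density on X, which carries Foxp3, was 0.488, 0.499 and 0.439 of the autosomal density in the same order. As a check of the genotype label, stretches of about 2 kb or longer that held no read from STAT3-deficient cells were ranked by the smaller of both wild-type counts. The top stretch lay on chromosome 11 from 100753872 to 100757504, with 0 STAT3-deficient reads against 27 wild-type H3K4me3 and 73 phospho-STAT3 reads, and the GRCm38.p6 gene table puts Stat3 on chromosome 11. The next stretch lay on chromosome 18, with 0 STAT3-deficient reads against 26 and 23, so the ranking by itself does not single out the Stat3 chromosome. No annotation of mm9 was used here, so Stat3 was not placed on the reads, and markers of Th17 cells or of other cell types were not examined.

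A ratio of H3K4me3 between genotypes is given as log2 of STAT3-deficient over wild-type reads, scaled to give a median of 0 over all marked regions, which are those with 50 or more H3K4me3 reads when both genotypes are added up. Intervals are exact 95% binomial (Clopper-Pearson) intervals, which cover counting error only, and with 1 library in each group no difference has a replicate check or a test. A region was called higher or lower when it differed by at least 2-fold and its interval excluded no difference. Of 10971 marked regions, the calls were 111 higher in STAT3-deficient cells (1.01%) and 127 lower (1.16%). Of the 9 regions in the 3 windows, 5 were marked, of which 1 was called higher (at Ikzf2) and 0 lower. These counts are too small to be read against the background.

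Ikzf2 had a higher H3K4me3 level in STAT3-deficient cells just inside the gene. Its approximate start position was flanked by a region on either side, and they did not behave alike. The interval used for the gene reaches the window's edge and spans 167001 bp, whereas the RefSeq gene on GRCm38.p6 is 156145 bp long. Places inside the gene and before its start are therefore relative to that position. The region inside the gene, on chromosome 1 from 69729000 to 69731599, began about 0.40 kb and ended 3.0 kb past the start position in the direction of transcription. It held 100 STAT3-deficient reads and 20 wild-type reads, a log2 ratio of 2.03 (interval 1.32 to 2.80), or 4.07-fold higher with bounds of 2.50 and 6.95. Reads on the forward strand were 50 in STAT3-deficient and 7 in wild-type cells, and on the reverse strand 50 and 13, so both strands showed the difference. The region was found and marked through its STAT3-deficient reads, since on the wild-type library alone it was not called, so a high ratio was in part fixed by how regions were chosen. In a window within 2 kb of the start position, which needs no called region and was added after the data were seen, there were 156 STAT3-deficient and 66 wild-type reads. That is 1.93-fold higher, a log2 ratio of 0.94 (0.52 to 1.38), under the 2-fold rule with an interval above 0. In the bulk culture, more cells with the mark and more mark per cell cannot be told apart.

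The region before the start, from 69733200 to 69734599, held the tallest H3K4me3 signal of the window in both genotypes. It held 85 STAT3-deficient and 64 wild-type reads, a log2 ratio of 0.11 (-0.37 to 0.60), and was not called. By density, the inner region had 3.18 RPKM (reads scaled by region length and library size) in STAT3-deficient and 0.626 in wild-type cells, whereas the region before the start had 5.03 and 3.72. The inner region was the weaker of both in either genotype, by a wider margin in wild-type cells.

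**Figure D1:**
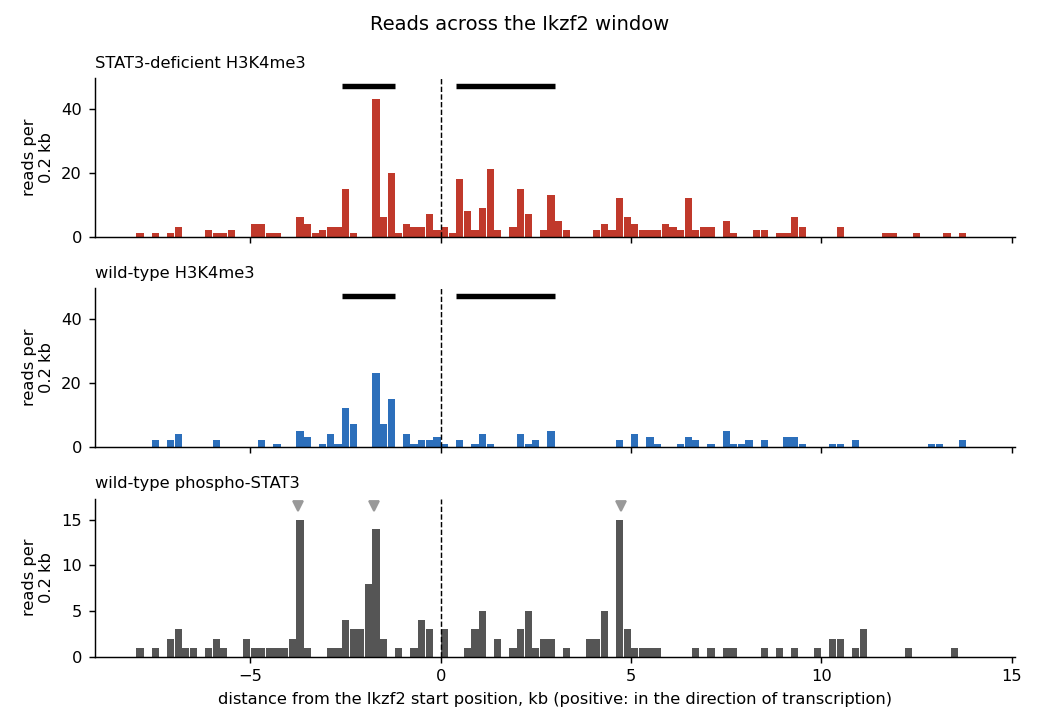
Reads in bins of 200 bp (y axis) against distance in kb from the approximate Ikzf2 start (x axis, positive into the gene; dashed line, start) for STAT3-deficient H3K4me3, wild-type H3K4me3 and wild-type phospho-STAT3, with black bars for marked regions and grey triangles for sites that are not strong. The region inside the gene holds 100 STAT3-deficient and 20 wild-type reads, while the region before the start holds 85 and 64.

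The difference went on past the called region, and the stretch that shows this was picked after the bins had been seen. Counted in bins of 1 kb, the 1st kb of the gene held 32 STAT3-deficient and 4 wild-type reads, and the kb from 1 to 2 kb held 35 and 5. Between 4 and 5 kb the counts were 26 and 2, and between 6 and 7 kb 22 and 6. The higher level was not even along the gene, since the kb from 3 to 4 kb held 7 and 0. Over the whole stretch from 0 to 7 kb there were 173 STAT3-deficient and 37 wild-type reads, 3.81-fold higher with a log2 ratio of 1.93 (1.41 to 2.48). The next 7 kb, from 7 to 14 kb, held 32 STAT3-deficient and 27 wild-type reads, and their log2 ratio was -0.05 (-0.84 to 0.74). The interval of that following stretch included no difference. Since the border at 7 kb was set after the bins had been seen, this contrast is a description and does not fix where the difference ends. Of the 59 bins of the Ikzf2 window with at least 10 H3K4me3 reads, 5 had an interval wholly above 0 and 0 wholly below. All 5 lay within the first 7 kb, which follows in part from how that stretch was picked. Away from regions the window was near the chromosome's mean, with 4.41 STAT3-deficient and 3.91 wild-type reads per kb against means of 4.37 and 4.45.

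Phospho-STAT3 sites at Ikzf2 were more frequent than along its chromosome, and none was strong. A site is a 200 bp window with a read count far over the local expectation, its excess is the count minus that expectation, and the 25% of all 27061 sites with most excess, from 26.1 reads up, are called strong. In the window of 180 kb there were 2.78 sites per 100 kb, against 0.987 on chromosome 1 and 1.02 across the genome. This rate rests on 5 sites, and 0 of the 5 were strong. Those near the start were centred at -3.75, -1.75 and 4.75 kb (negative before the start, positive into the gene), with 17, 20 and 17 reads in their best windows, 8.67-fold, 9.62-fold and 12.7-fold over expectation. The other 2 lay 137 and 141 kb into the gene, with 14 and 24 reads. The site at -1.75 kb coincided with the H3K4me3 region there and was also called as a site in both H3K4me3 libraries, where the same 200 bp held 33 STAT3-deficient and 20 wild-type reads. The site inside the gene, from 69727150 to 69727449, was not called in either, and sat within the stretch of raised H3K4me3. Its best window held 16 STAT3-deficient and 2 wild-type H3K4me3 reads, beside the 17 phospho-STAT3 reads. Within 1 kb of this site H3K4me3 counts were 36 in STAT3-deficient and 9 in wild-type cells, a log2 ratio of 1.70 (0.62 to 2.94). At the other 4 sites the log2 ratio was 0.11 to 0.44, with 0 in every interval. Within 1 kb of the 5 sites together there were 176 STAT3-deficient and 111 wild-type reads, a ratio of 0.37 on the log2 scale (0.02 to 0.72). The nearest called region to the site inside the gene lay 1551 bp away.

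Il2ra had the most H3K4me3 reads in regions, and by far the most phospho-STAT3 reads, of the 3 windows. Just past its start lay a wide region, from 11564400 to 11569599, from 0.40 to 5.6 kb past the start position. It held 303 STAT3-deficient and 216 wild-type reads, above the counts of 98.7% and 98.3% of marked regions in the same order, and its width of 5200 bp was above that of 99.1% of them. The log2 ratio was 0.19 (-0.06 to 0.45), so it was not called, and with this scaling a difference was not detectable at this depth. Scaled by library totals instead, the ratio was 0.51 (0.26 to 0.77), an interval above 0 but short of 2-fold. This scaling shifts every ratio by 0.32 log2 units, and the choice of regions matters too. With regions taken from wild-type reads only, the Il2ra sum had a log2 ratio of 0.25 (0.0054 to 0.50) with the scaling by the median. Whether it was slightly higher in STAT3-deficient cells therefore depends on these choices.

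The H3K4me3 inside the wide Il2ra region was spread over its length. In the 1st to the 5th kb past the start the STAT3-deficient counts were 63, 56, 63, 65 and 44, against 49, 29, 43, 52 and 33 in wild-type cells. All 5 bins were higher in the STAT3-deficient library by raw count, before scaling. Of the 54 bins of the Il2ra window with at least 10 H3K4me3 reads, 0 had an interval wholly above 0 and 3 wholly below, whereas library totals gave 2 above and 0 below. Further inside the gene, regions from 8.0 to 8.8 kb and from 15.6 to 16.6 kb held 20 and 21 STAT3-deficient reads against 18 and 19 wild-type reads, too few to be marked. A region from 11626800 to 11628199 lay past the end of the gene's interval at 11615000. It held 128 STAT3-deficient and 88 wild-type reads, a log2 ratio of 0.24 (-0.16 to 0.65), and was not called. In the GRCm38.p6 gene table the next protein-coding gene after Il2ra is Il15ra, the IL-15 receptor alpha chain, with a gap of 11977 bp between them, and the region was not assigned to either gene here.

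**Figure D2:**
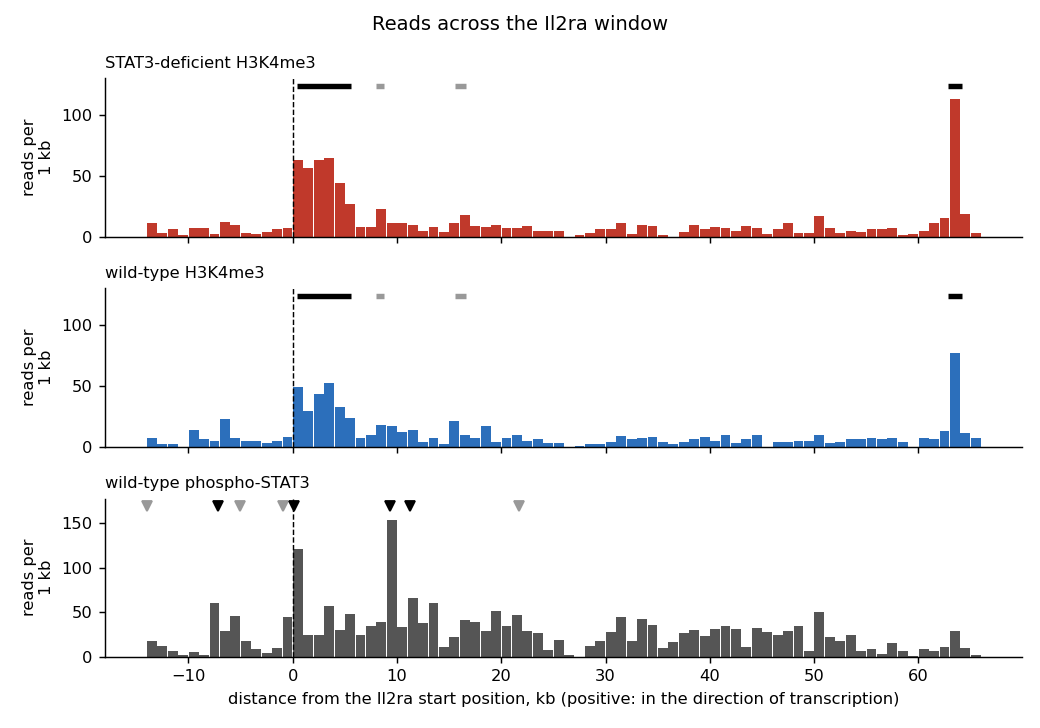
Reads in bins of 1 kb (y axis) against distance in kb from the approximate Il2ra start (x axis; dashed line, start) for STAT3-deficient H3K4me3, wild-type H3K4me3 and wild-type phospho-STAT3, with black bars for marked and grey bars for unmarked regions, and black triangles for strong and grey for other sites. H3K4me3 gathers in the first 5.6 kb of the gene and past its end in both genotypes, whereas phospho-STAT3 reads are raised along most of the gene, up to 154 in a bin.

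Phospho-STAT3 reads were raised along most of the Il2ra gene and not at single sites alone. The 80 kb window held 2179 phospho-STAT3 reads (exact Poisson 95% interval 2088 to 2272), 6.24-fold over the mean of chromosome 2, and of 32230 tiles of that width across the genome 24 held as many or more. The H3K4me3 libraries were 2.32-fold (STAT3-deficient) and 1.95-fold (wild-type) over their chromosome means in the same window. Outside the H3K4me3 regions, the window held 26.1 phospho-STAT3 reads per kb against a chromosome mean of 4.37, while the H3K4me3 libraries held 6.47 (STAT3-deficient) and 6.34 (wild-type) per kb against 5.05 and 5.11. Outside the regions, both H3K4me3 libraries were thus much nearer to their own means than the phospho-STAT3 library was.

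In steps of 20 kb the phospho-STAT3 level was highest over Il2ra and the steps just before it. The 20 kb from 11500000 to 11519999 held 136 phospho-STAT3 reads, and the steps before that, from 11440000 on, held 232, 273 and 93. The next 5 steps held 425, 478, 856, 537 and 492, the last of them from 11600000 to 11619999, and the step after that held 129. The high stretch thus ran from upstream of Il2ra to about the end of its interval, with a lesser raised stretch further upstream. Inside the gene the bins of 1 kb at 11590000 and 11591000 held 2 and 0 phospho-STAT3 reads, where both H3K4me3 libraries held 0 and 1. In the GRCm38.p6 table the gene before Il2ra, Rbm17, which encodes a splicing factor, lies 39592 bp away, so the upstream steps may reach it.

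The Il2ra window held 8 phospho-STAT3 sites, 10.0 per 100 kb against 1.19 on chromosome 2, and 4 of them were strong. The largest, from 11573100 to 11573499 and centred 9.3 kb into the gene, had 88 reads in its best window, 8.49-fold over a local expectation of 10.4, and ranked 360 of 27061 sites by excess. The next lay over the start itself, from 11564000 to 11564649, with 50 reads, 7.25-fold over expectation and rank 1869. The other strong sites were centred at -7.15 kb with 41 reads and at 11.2 kb with 40. The remaining 4 sites were centred at -14, -5.1, -0.90 and 21.7 kb, with 18, 23, 31 and 27 reads. The expectation at these sites is itself raised by the broad signal, and against the genome-wide density alone 39 sites were found in the window in place of 8. At all 8 the reads of the reverse strand lay 73.5 to 119 bp further along than those of the forward strand (difference of medians). The same difference ranged more widely at the Ikzf2 sites, from 20 bp at -1.75 kb to 186 bp at 136.8 kb, and was 123 bp at the Foxp3 site.

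Only the site over the start lay in an H3K4me3 region, and it was also called in the STAT3-deficient H3K4me3 library but not in the wild-type one. The strongest site lay 301 bp from the nearest region, and its best window held 2 STAT3-deficient and 0 wild-type H3K4me3 reads, so the 88 phospho-STAT3 reads there had no counterpart in either H3K4me3 library. Within 1 kb of the 8 sites together there were 186 STAT3-deficient and 189 wild-type H3K4me3 reads. The log2 ratio was -0.32 (-0.62 to -0.02). Library totals gave 0.0013 (-0.30 to 0.30), so no direction is read from it.

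The RefSeq promoter of Il2ra on GRCm38.p6, chr2:11642542-11642841 on the forward strand, is shown because a strong site and the wide H3K4me3 region lie at the gene's start. It spans 250 bases before to 50 after the start, 5′ to 3′. Matches to the STAT motif TTCNNNGAA or to its wider form TTCNNNNGAA, sought on both strands, would stand in capitals.
Il2ra promoter: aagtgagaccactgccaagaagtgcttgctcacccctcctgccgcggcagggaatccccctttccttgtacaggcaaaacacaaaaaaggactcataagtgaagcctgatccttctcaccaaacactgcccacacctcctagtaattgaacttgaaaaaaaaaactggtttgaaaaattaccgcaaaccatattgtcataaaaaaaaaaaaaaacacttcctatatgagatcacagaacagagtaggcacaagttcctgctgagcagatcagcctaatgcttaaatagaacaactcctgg
It held 0 matches to either form. Of 32851 RefSeq promoters of this length, 8.30% held TTCNNNGAA and 6.95% TTCNNNNGAA. The build differs from that of the reads, so the sequence was not aligned with the peak.

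**Figure D3:**
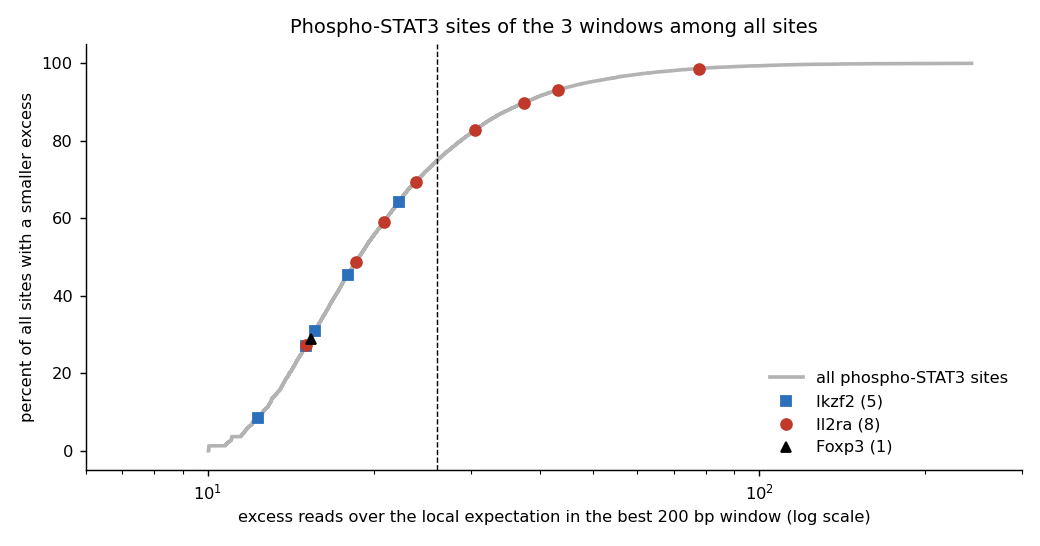
Each phospho-STAT3 site of the 3 windows by its excess reads over the local expectation (x axis, log scale) and the percent of all 27061 sites with a smaller excess (y axis), with the grey line for all sites and the dashed line at the strong threshold of 26.1 reads. The 4 points right of the line are all Il2ra sites, and the 5 Ikzf2 sites and the Foxp3 site lie left of it.

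The Foxp3 window had weak H3K4me3 regions in the pooled libraries, and its reads were raised as a whole. On the wild-type library alone no Foxp3 region was called. No difference between genotypes in these regions was distinguishable at this depth. The only marked region, from 7151000 to 7152599, began 0.20 kb past the start position and held 42 STAT3-deficient and 41 wild-type reads. Its log2 ratio was -0.26 (-0.92 to 0.40), or 0.06 (-0.60 to 0.72) when library totals set the scale. Its counts were above those of 20.8% (STAT3-deficient) and 27.7% (wild-type) of marked regions. The regions beside it, from 7149800 to 7150199 and from 7153600 to 7154599, held 18 and 21 STAT3-deficient reads against 17 and 27 wild-type reads and were not marked. Summed over the 3 regions, 81 STAT3-deficient and 85 wild-type reads gave a ratio of -0.37 on the log2 scale (-0.82 to 0.09), an interval that reaches 2-fold in neither direction.

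The start position of Foxp3 is approximate. The interval it was given, from 7150800 to 7172400, spans 21601 bp, whereas the RefSeq gene on GRCm38.p6 is 15568 bp long, and there Ppp1r3f, the next protein-coding gene before it, lies 5394 bp away. The weak H3K4me3 at the front of the interval was therefore assigned to neither gene, and its ratios may not describe the Foxp3 start. A bin further in, from 6.2 to 7.2 kb past the start position, held 25 STAT3-deficient and 14 wild-type reads and was in no called region. It lay in a stretch from 4.2 to 8.2 kb, picked after its counts were seen, with 54 STAT3-deficient and 27 wild-type reads. The log2 ratio of that stretch was 0.70 (0.01 to 1.43). Of the 43 bins of the window with at least 10 H3K4me3 reads, 1 had an interval wholly above 0 and 1 wholly below.

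**Figure D4:**
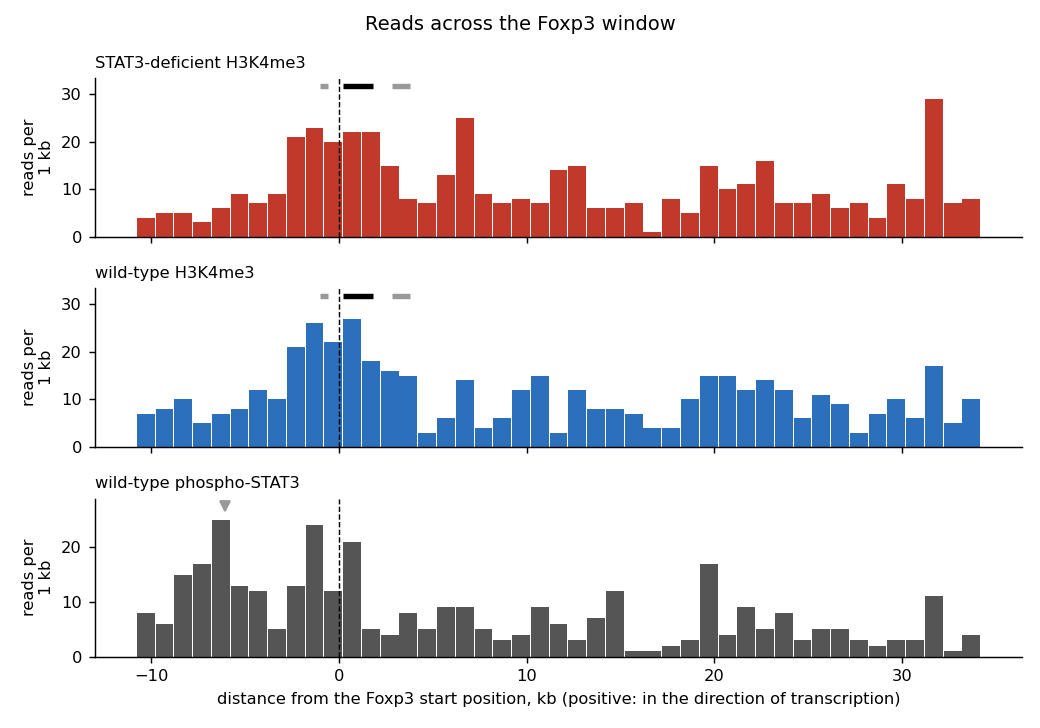
Reads in bins of 1 kb (y axis) against distance in kb from the approximate Foxp3 start (x axis; dashed line, start) for STAT3-deficient H3K4me3, wild-type H3K4me3 and wild-type phospho-STAT3, with a black bar for the marked region, grey bars for unmarked regions and a grey triangle for the site. No bin of either H3K4me3 library reaches more than 29 reads, against 113 at the tallest bin of the Il2ra window, which lies past that gene.

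The Foxp3 window was raised as a whole in every library, and not by regions or sites. It held 472 STAT3-deficient H3K4me3, 480 wild-type H3K4me3 and 350 phospho-STAT3 reads, 4.55-fold, 4.45-fold and 4.46-fold over the mean of X. Both H3K4me3 counts were high for the genome, above those of 96.7% (STAT3-deficient) and 97.0% (wild-type) of tiles of that width. The phospho-STAT3 count stood less far out, above that of 88.7% of such tiles. Over all reads of the window the H3K4me3 log2 ratio, scaled by marked regions, was -0.32 (-0.51 to -0.13). Most of these reads lay outside regions, and per length and library total both genotypes had 0.869 RPKM. No direction is therefore read from that ratio. Outside its H3K4me3 regions there were 9.31, 9.40 and 7.36 reads per kb in that order, against means of 2.31, 2.40 and 1.75 on X. The window of equal width that follows held 364, 465 and 384 reads in the same order, and the one before it 218, 283 and 133. The raised level was thus common to both antibodies and went on past the window, and its origin was not tested. A single phospho-STAT3 site was found, 2.22 per 100 kb against 0.202 on X and 1.02 across the genome. With 1 site, this rate is not read as a difference. The site ran from 7144650 to 7144899, centred at -6.05 kb, with 18 reads, 6.82-fold over expectation and rank 19246 of 27061. It was not called in either H3K4me3 library, where its best window held 3 STAT3-deficient and 1 wild-type reads. The call did not hold without the read shift or at a stricter threshold, which left 0 sites in the window.

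RefSeq gives a pair of Foxp3 starts on GRCm38.p6, chrX:7579426-7579725 and chrX:7580233-7580532 on the forward strand for the promoters, shown because the start position used is approximate. They are printed as for Il2ra, 5′ to 3′, with a match to TTCNNNGAA in capitals.
Foxp3 promoter 1: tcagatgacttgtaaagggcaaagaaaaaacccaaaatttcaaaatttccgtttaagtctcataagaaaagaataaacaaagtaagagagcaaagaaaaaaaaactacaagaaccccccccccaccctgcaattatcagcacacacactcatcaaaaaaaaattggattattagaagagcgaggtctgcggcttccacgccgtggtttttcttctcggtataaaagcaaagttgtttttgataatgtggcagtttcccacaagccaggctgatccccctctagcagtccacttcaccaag
Foxp3 promoter 2: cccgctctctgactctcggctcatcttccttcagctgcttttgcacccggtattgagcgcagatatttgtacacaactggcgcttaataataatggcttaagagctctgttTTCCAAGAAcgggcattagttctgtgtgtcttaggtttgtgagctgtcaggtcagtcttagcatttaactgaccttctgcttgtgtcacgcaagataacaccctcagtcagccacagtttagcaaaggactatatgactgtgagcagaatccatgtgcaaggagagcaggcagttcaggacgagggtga
The upstream promoter held 0 matches, and the other held 1, TTCCAAGAA, 139 bases before its start. A match to these letters is a description and was not linked to any site. RefSeq promoters were matched for 2 of the 3 genes.

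**Figure D5:**
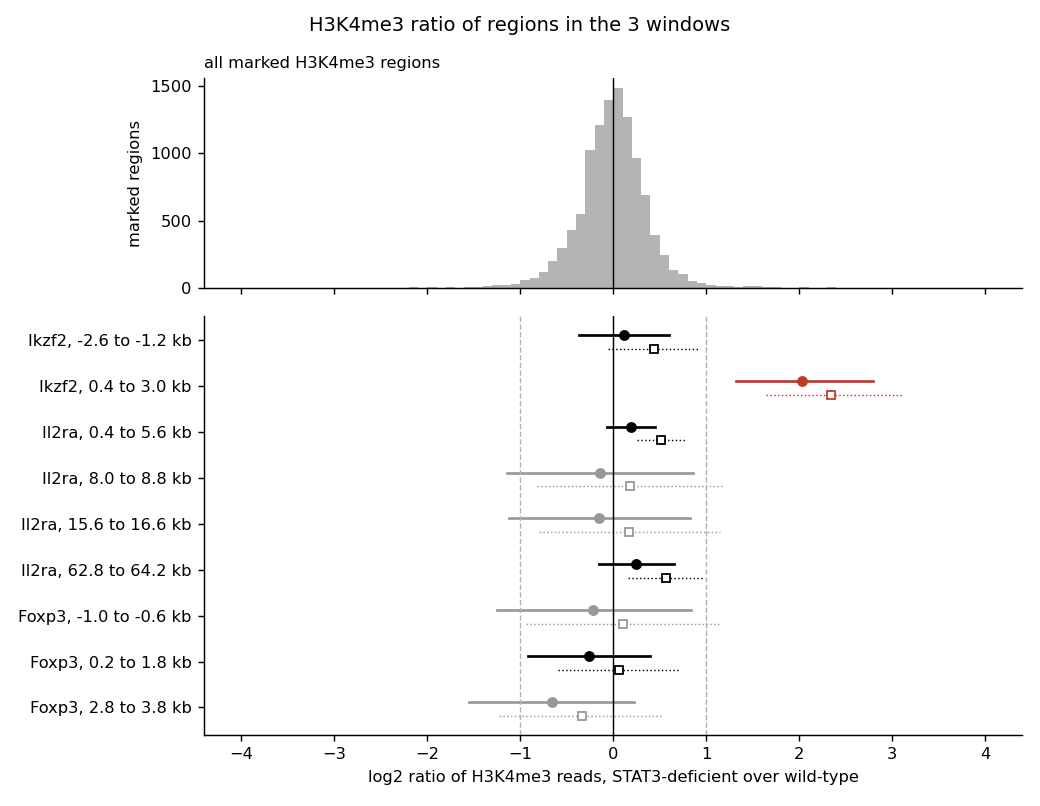
The upper panel counts marked H3K4me3 regions (y axis) by log2 ratio of STAT3-deficient over wild-type reads (x axis), and the lower panel gives the 9 regions of the 3 windows, labelled by distance from the gene's start, with filled points and solid lines for the ratio and 95% interval scaled by marked regions, open squares and dotted lines by library totals, red for the region called higher, black for other marked and grey for unmarked regions, and dashed lines at 2-fold. The Ikzf2 region from 0.4 to 3.0 kb alone lies past the 2-fold line, at 2.03.

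Set side by side, the 3 genes differed in where both signals lay. Summed over all regions of its window, Ikzf2 had 185 STAT3-deficient and 84 wild-type reads, a log2 ratio of 0.84 (0.46 to 1.23). This sum includes the region inside the gene, which was not called on the wild-type library alone. With regions called on that library the Ikzf2 ratio was 0.18 (-0.31 to 0.67), and over all reads of the window 0.02 (-0.12 to 0.16). The sum for Il2ra was 472 and 341 reads at 0.17 (-0.03 to 0.38), and that for Foxp3 is given with its regions. Strong phospho-STAT3 sites and a broad phospho-STAT3 signal were found at Il2ra, where the H3K4me3 ratio did not pass the size rule. The region that passed the rule, at Ikzf2, had sites near it that were not strong. Whether STAT3 binding and the H3K4me3 ratio are linked at these genes was not tested, since the phospho-STAT3 library comes from wild-type cells alone.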

How the data were processed

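Per the labels' protocols, DNA of about 250 bp went through 18 PCR cycles. The deposited files list aligned reads of 25 bases with no summary value. The build was mm9 and SICER was used, per the submitters' processing notes; the aligner is not given in the sources used here. In each file 0 positions and strands carried more than 1 read. Coordinates are on mm9 and 1-based unless GRCm38.p6 is named.

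Reads were moved 75 bp towards the fragment centre. H3K4me3 regions were windows of 200 bp with at least 12 reads in both H3K4me3 libraries pooled (Poisson p of 1e-05, mappable share 0.8), joined within 600 bp, with at least 2 windows. Phospho-STAT3 sites were 200 bp windows, stepped by 50 bp, that held reads of both strands, 10 or more in all, with a Poisson p under 1e-08 given the genome's density or that of the surrounding 10 kb, whichever was higher; this is a call within 1 library. The size rule for regions and the calling of sites were tried on simulated data, whereas the calling of regions was not. Every region and site in the windows is reported. The members, their windows and the methods were chosen with earlier results of these data known; the list of other Treg genes was not run, since the gene table is of another build. Neither input nor phospho-STAT3 from STAT3-deficient cells was analysed here. Reads carry no molecular identifiers, so intervals cover counting error only. Alternatives were other scalings, calling settings, windows and thresholds. Tools were Python 3.11.15, numpy 2.4.6, scipy 1.17.1, pandas 2.3.3 and matplotlib 3.10.9.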

Additional observations from a re-analysis of the deposited data

How the results depend on the processing

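Of 72 values under alternatives, 49 stayed within the main interval or within 1.5 times the main count. For the Ikzf2 region inside the gene, 6 alternatives gave a log2 ratio of 1.52 to 2.87, each above 2-fold. The lowest, 1.52, was a fixed window of 10 kb from the start position, and the highest, 2.87, had background subtracted. These draw on largely the same reads, and the region was found through its STAT3-deficient reads, so high values were in part fixed. The window within 2 kb of the start position, which needs no called region, gave 0.94, under 2-fold. On the wild-type library alone the region was not called, and at a window minimum of 8 reads it merged with its neighbour, so neither gave a value. The Ikzf2 sum was 0.18 with regions called on the wild-type library, 0.0213 for all reads of the window and 2.03 for the region inside the gene interval. The Il2ra sum was 0.49 by library totals and -0.0621 for all reads of the window, and for regions called on the wild-type library 0.25 with an interval just above 0. Around Il2ra sites the H3K4me3 ratio turned to 0.0013 by library totals. The Foxp3 value was -0.32 for all reads of the window, with an interval below 0 in the scaling by marked regions. Per length and library total both genotypes had 0.869 RPKM there. The Foxp3 value was 0.63 when regions came from the STAT3-deficient library (24 against 12 reads). No Foxp3 region was called on the wild-type library or at 20 reads. Beyond what the settings themselves change, the cause was not tested.

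Across the genome, regions called higher and lower numbered 319 and 54 by library totals, 355 and 450 at 1.5-fold, 202 and 369 when marked at 20 reads, and 52 and 42 at 100 reads, against 111 and 127. At a Poisson p under 1e-12, Foxp3, Ikzf2 and Il2ra kept 0, 3 and 4 sites. Foxp3 had 2 sites at 1e-05, 3 with the genome-wide density alone and 0 without the read shift, and Il2ra had 39 with the genome-wide density alone. The fixed windows, the gene-interval regions and the subtraction at the Ikzf2 region were added after the data were seen. No paired analysis was possible because each group had 1 library. Depth limits the Foxp3 values most, with at most 42 reads in a region.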

Other observations

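At Foxp3, 4 adjoining bins from 4.2 to 8.2 kb past the start position, picked after their counts had been seen, held 54 STAT3-deficient and 27 wild-type H3K4me3 reads. The log2 ratio was 0.70 (0.01 to 1.43), or 1.02 (0.33 to 1.75) when library totals set the scale. The stretch held no called region and 28 phospho-STAT3 reads. Since it was picked among the 45 bins of the window, its interval is a description only.

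The code for matching bases in each read, which no comparison used, gave 2 positions in the Foxp3 window, 1 in the Ikzf2 window and 0 in the Il2ra window where at least 3 reads from different starts, and at least 30% of all reads, differed from the reference. Reads with any mismatch made up 4.45% of STAT3-deficient H3K4me3, 5.23% of wild-type H3K4me3 and 7.43% of phospho-STAT3 reads in the Foxp3 window. At Il2ra such reads were 3.85% of STAT3-deficient H3K4me3, 3.28% of wild-type H3K4me3 and 2.93% of phospho-STAT3 reads.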
